A study of Mus musculus with 29 samples.

Results

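Ly6C-high (Ly6Chi) macrophages of mice that lack the lysosomal ribonuclease RNase T2 were compared between 2 organs, the liver and the spleen. The comparison used 6 of the 29 libraries of the series, 3 from the liver and 3 from the spleen, and 10377 of the 21922 autosomal genes in the table, those with at least 1 RPM (reads scaled to a common library total) in at least 3 of the 6 libraries. The mice carried disruptions of both mouse RNase T2 genes (Rnaset2a-/- Rnaset2b-/-, here Rnaset2-/-) on a C57BL/6 background, in every cell of the body. The age of the mice was not given in the sources used here. The labels give both groups 1 gate, CD11b+ Ly6G- SiglecF- NK1.1- Ly6Chi, no treatment, and sequencing directly after sorting. The methods of the study describe different sorts for the organs, CD16.2lo CD11b+ NK1.1- Ly6G- Ly6Chi cells for the spleen and F4/80+ CD11bhi cells, with no NK1.1 or Ly6G staining stated, for the liver. For the hepatic Ly6Chi cells they print the same Ly6Clo CD16.2hi gate as for the hepatic Ly6Clow cells, so the gate used is uncertain. For comparison, 6 wild-type libraries with the same gate label were used, 3 per organ. The labels do not state whether replicates came from separate mice, so the p-values measure only the spread between these samples. Rnaset2a and Rnaset2b were not analysed here, so the deletion itself was not checked in these libraries.

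RNase T2 cleaves single-stranded RNA in endosomes and lysosomes, where the RNA-sensing Toll-like receptors TLR3, TLR7, TLR8 and TLR13 reside. Ly6Chi monocytes leave the bone marrow, circulate and enter tissues, where they can turn into Ly6Clow patrolling cells or into resident macrophages. In the liver, monocytes that settle in the sinusoids can take on the Kupffer cell programme, which depends on the nuclear receptor LXRα (Nr1h3) and on signals from sinusoidal endothelium, whereas the spleen holds a reservoir of undifferentiated monocytes and, under demand, produces myeloid cells itself.

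Several properties moved together with the organ. The liver libraries held 12947665 to 13027220 reads and the spleen libraries 20404155 to 21167602, so that 3 reads correspond to 0.230 to 0.232 RPM in the liver and 0.142 to 0.147 RPM in the spleen. Y-linked transcripts summed to 150, 191 and 251 RPM in the 3 liver libraries and to at most 0.427 RPM in the spleen, whereas Xist was 0 to 0.154 RPM in the liver and 353 to 447 RPM in the spleen. Spleens were minced between glass slides and depleted of lymphocytes, granulocytes and erythroid cells on magnetic columns. Livers were minced and processed in a tissue dissociator equipped with heaters, and no such depletion was stated for them. The stated sorts differed too, as given above. Organ, sex of the mice, dissociation, depletion, sort and depth therefore cannot be told apart in this comparison, and sex-linked genes were left out of the test.

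Liver replicate 1 stood apart from the other 2 liver libraries. It differed more than 2-fold from liver replicates 2 and 3 at 1682 and 1865 genes, compared with 214 genes between replicates 2 and 3 and 144 to 326 genes between spleen libraries. Nos2, the inducible nitric oxide synthase, was listed at 295, 6.95 and 5.31 RPM in liver replicates 1, 2 and 3, and Ace, a marker of patrolling monocytes, at 26.2, 609 and 667 RPM. Results are therefore given with all 6 libraries and, where it matters, without liver replicate 1. Part of this pattern recurred in the Ly6Clow liver macrophages of Rnaset2-/- mice. There Nos2 was 43.954, 0.623 and 1.072 RPM in replicates 1, 2 and 3, and Saa3, Procr and Gbp2b were also highest in replicate 1. Ltbp4 was again lowest in replicate 1, whereas Ace went the other way (47.649, 14.863 and 7.58 RPM), as did Zbtb16 and Sstr4. Whether same-numbered replicates shared a mouse or a batch was not tested. Below, 3 values in a row stand for replicates 1, 2 and 3, and every log2 difference is liver minus spleen on the log2(value + 1) scale, which understates the change of low genes.

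Of the 10377 genes, 1582 (15.2%) were higher and 1335 (12.9%) lower in the liver at more than 1.5-fold and an adjusted p below 0.05 (limma, Benjamini-Hochberg). Without liver replicate 1, 2033 genes (19.6%) were higher and 1653 (15.9%) lower. Of the genes called with all 6 libraries, 1534 of the higher and 1257 of the lower ones were called in the same direction without that library. Every liver value lay above every spleen value for 2771 genes and below for 2130. The median log2 difference over all tested genes was 0.003, and it is the value against which list medians below should be read. Likewise, counts of called list members should be read against the shares of 15.2% and 12.9%, or 19.6% and 15.9% without liver replicate 1.

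**Figure D1:**
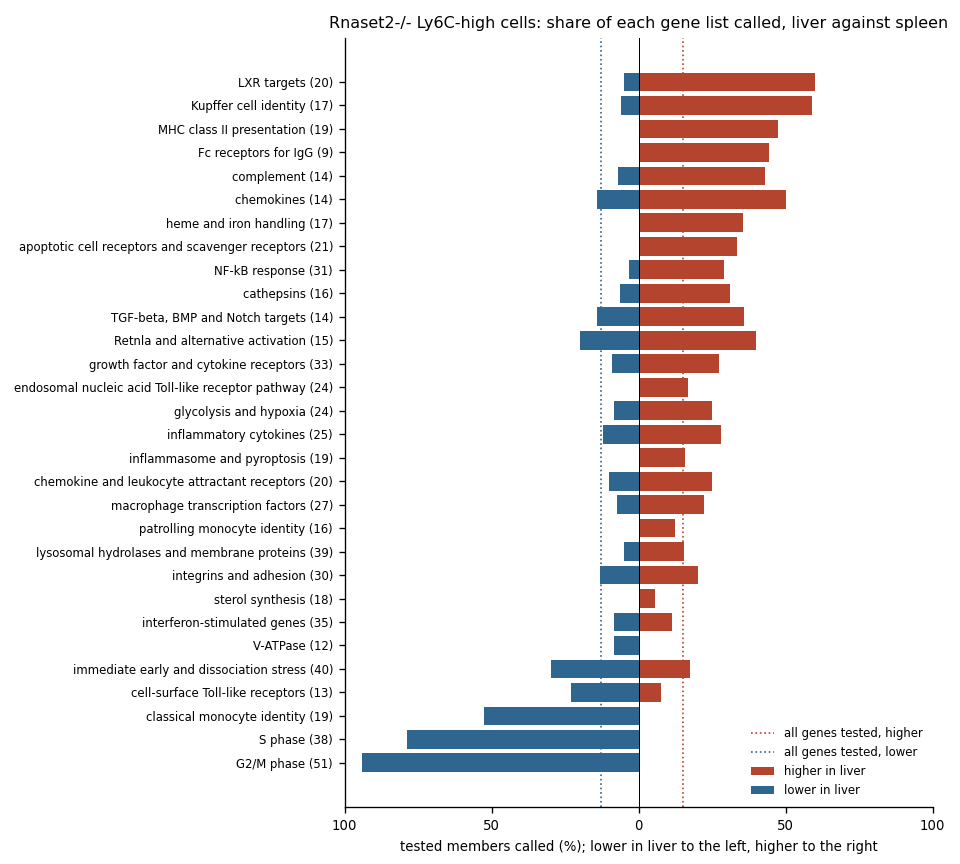
Share of tested members of each pathway or identity list (percent) called higher or lower in the liver than in the spleen of Rnaset2-/- mice, with 3 libraries per organ. Dotted lines mark the shares over all genes, 15.2% higher and 12.9% lower. G2/M (48 of 51 lower) and S phase genes (30 of 38 lower) lie farthest to the left among these lists, which leave out the markers of other cell types, and LXR targets (12 of 20 higher) and Kupffer cell genes (10 of 17 higher) farthest to the right.

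The gate was checked against marker genes. The summed level of the macrophage and monocyte markers was 27235.6 to 37588.5 RPM in the liver and 28341.3 to 34993.7 RPM in the spleen, so the ranges overlapped, and 2 of 12 tested markers were higher and 1 lower in the liver. Those shares, 16.7% and 8.33%, compare with 15.2% and 12.9% over all genes. Csf1r, the receptor for the macrophage growth factor CSF-1, was 1139.7, 1294 and 1363 RPM in the liver and 1009, 850.3 and 695 RPM in the spleen (log2 difference 0.51 ± 0.19 SE, adjusted p = 0.0793). Adgre1, which encodes the F4/80 antigen of the stated liver sort, was 145, 138 and 115 RPM in the liver and 71.4, 75.2 and 71.3 RPM in the spleen (log2 difference 0.78 ± 0.18 SE, adjusted p = 0.0148). The sort can set that difference, and the call was lost without any 1 spleen library (adjusted p = 0.0593, 0.0505 and 0.0662, adjusted p = 0.00113 to 0.0662 over all alternatives). Ly6C genes were not analysed here. Markers of cells outside the gate were also present, and differed between the organs. In bulk samples, fewer cells of a type and less RNA per cell cannot be told apart.

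Neutrophil and granulocyte precursor markers summed to 374 to 1926 RPM in the liver and to 34698.5 to 60170.3 RPM in the spleen, and 17 of 18 tested markers were lower in the liver, none higher (median log2 difference -5.00). In the opposite direction, 14 of 14 tested T cell markers, 8 of 14 natural killer cell markers (13 without liver replicate 1) and 8 of 14 conventional dendritic cell markers (11 without it) were higher in the liver. Of the dendritic cell markers 1, Cd24a, was lower, and 2 reached 1 RPM only in the liver. For other lists the filter fixed the direction of many members, since 9 of 11 tested B cell markers, 10 of 15 sinusoidal endothelial markers, 7 of 7 hepatocyte markers, 2 of 5 erythroid markers and 2 of the T cell markers reached 1 RPM only in the liver. Those lists are therefore given by their sums. T cell markers summed to 253 to 539 RPM in the liver and 21.4 to 56.6 RPM in the spleen. Natural killer cell markers summed to 1320 to 3283 RPM against 148 to 280 RPM, and B cell markers to 183 to 455 RPM against 21.0 to 29 RPM. Sinusoidal endothelial markers summed to 999 to 4666 RPM against 150 to 237 RPM, with the lowest liver value in replicate 1. Hepatocyte markers summed to 31.0 to 92.3 RPM against 0.189 to 0.931 RPM, and erythroid markers to 97.7 to 315 RPM against 6.52 to 16.9 RPM. Conventional dendritic cell markers summed to 573 to 1219 RPM against 591 to 719 RPM, so their sums overlapped, while Ccr7, a homing receptor of migrating dendritic cells, was 37.8, 85.2 and 117 RPM in the liver and 4.35, 2.70 and 3.89 RPM in the spleen (log2 difference 3.93 ± 0.35 SE, adjusted p = 0.000308). The part of these cells in any result below was not tested.

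**Figure D2:**
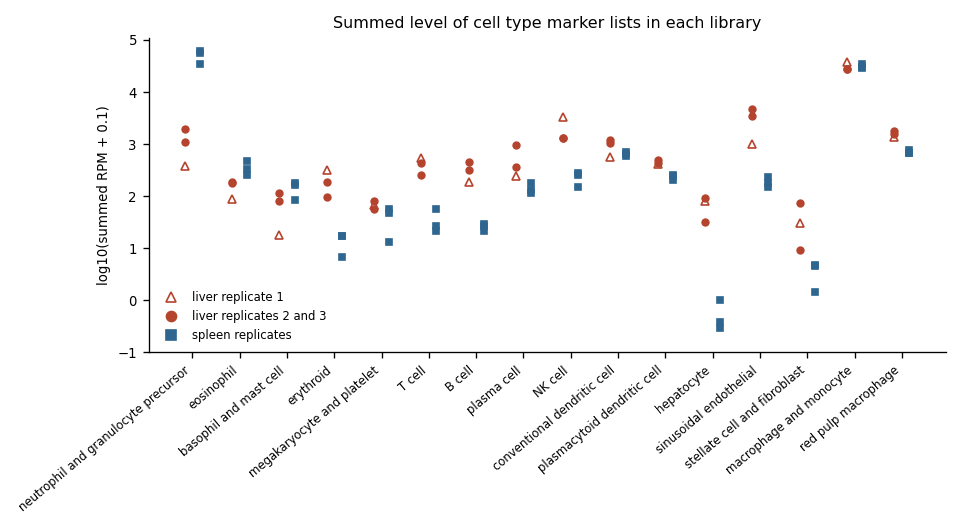
Summed level of the marker genes of each cell type, as log10 of the sum in RPM plus 0.1, in each of the 6 Rnaset2-/- libraries, with 1 point per library. Macrophage and monocyte markers overlap between the organs, neutrophil markers are higher in every spleen library, and lymphocyte, endothelial, hepatocyte and erythroid markers are higher in every liver library.

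The 12 genes with the largest positive difference were Clec4g, Igfbp7, Ltbp4, Aqp1, Ptprb, Stab1, Cdh5, Gpihbp1, Sparc, Hspa1b, Kdr and Ehd3, which together hold many endothelial genes and 1 heat-shock gene. Of these 12, 8 reached 1 RPM only in the liver (Clec4g, Igfbp7, Ltbp4, Ptprb, Cdh5, Gpihbp1, Sparc and Kdr), so the filter fixed their direction. Clec4g, a C-type lectin of sinusoidal endothelium, was 99.4, 447 and 689.9 RPM in the liver and 0.0940, 0.147 and 0.190 RPM in the spleen (log2 difference 8.06 ± 0.58 SE, adjusted p = 0.000159, 8.82 without liver replicate 1). Stab1, a scavenger receptor of sinusoidal endothelium and of some macrophages, was 185, 270.3 and 382 RPM in the liver and 1.28, 0.980 and 0.522 RPM in the spleen (log2 difference 7.08 ± 0.26 SE, adjusted p = 4.36e-05). Ptprb, an endothelial phosphatase, and Gpihbp1, which anchors lipoprotein lipase to capillaries, were at 0 in the spleen libraries and at 36.9, 284 and 502 RPM and 39.1, 178 and 284 RPM in the liver. Hspa1b, an inducible HSP70 chaperone, was 207, 606 and 864 RPM in the liver and 4.16, 2.35 and 2.47 RPM in the spleen (log2 difference 6.87 ± 0.44 SE, adjusted p = 0.000123). No Hspa1b value of the liver came near one of the spleen. Of the other 4, Aqp1, Stab1, Hspa1b and Ehd3, each kept its call under every alternative tried.

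Of 17 tested genes of Kupffer cell identity, 10 were higher and 1 lower in the liver, with a median log2 difference of 1.53 (1.31 without liver replicate 1). Of these 17, 4 reached 1 RPM only in the liver, Clec4f among them, and so passed the filter through it. The list shares Cdh5 with the endothelial markers, Clec1b with the platelet markers, and Cd163, Slc40a1 and Spic with the red pulp macrophage markers. Cd5l, a secreted protein that is an LXR target and marks Kupffer cells (chromosome 3, 87357881 to 87371073, mm10), was 348, 152 and 159 RPM in the liver and 3.87, 8.68 and 6.03 RPM in the spleen (log2 difference 4.81 ± 0.43 SE, adjusted p = 0.000313). The liver values, highest in replicate 1, lay well above the spleen values. Nr1h3, which encodes LXRα, was 145, 74.7 and 61.7 RPM in the liver and 19.8, 18.8 and 13.4 RPM in the spleen (log2 difference 2.22 ± 0.38 SE, adjusted p = 0.0045). Clec4f, a lectin found on Kupffer cells in mice, was 3.53, 1.78 and 4.08 RPM in the liver and at 0 in the spleen libraries (log2 difference 1.97 ± 0.30 SE, adjusted p = 0.00268).

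For scale, wild-type Kupffer cells had a mean of 6345 ± 2853 RPM Cd5l (SD, n = 4) and Ly6Clow liver macrophages of Rnaset2-/- mice 7290 ± 2132 RPM (SD, n = 3), compared with 220 ± 111 RPM (SD, n = 3) in the Ly6Chi liver group and 1.17 ± 0.392 RPM (SD, n = 3) in its wild-type counterpart. Clec4f was 4197 ± 1709 RPM (SD, n = 4) in Kupffer cells and 3.13 ± 1.20 RPM (SD, n = 3) in the Ly6Chi liver group. Timd4, the phosphatidylserine receptor TIM-4, was 7.29, 2.01 and 0.923 RPM in the liver and 0.0470, 0 and 0.237 RPM in the spleen, too low for the test, compared with 365 ± 133 RPM (SD, n = 4) in Kupffer cells. Vsig4, an X-linked complement receptor, was 6.62 to 11.3 RPM in the liver, at most 0.0940 RPM in the spleen, and 1239 to 3165 RPM in Kupffer cells. These levels are descriptions across groups, and no test was made between them.

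Transcription factors of resident macrophages differed from one another. Of 27 tested, 6 (22.2%) were higher and 2 (7.41%) lower, shares not far from the 15.2% and 12.9% over all genes. The 2 lower ones were Id1 and Cebpa. The Id1 call was lost under 6 of 17 alternatives and the Cebpa call under 3. Maf, a regulator of macrophage maturation, was 259.6, 238 and 298 RPM in the liver and 41.1, 29 and 26.9 RPM in the spleen (log2 difference 2.94 ± 0.19 SE, adjusted p = 0.000123). Id3, a regulator needed for Kupffer cells, was 74.8, 192 and 229 RPM in the liver and 52.1, 41.5 and 38.6 RPM in the spleen (log2 difference 1.67 ± 0.34 SE, adjusted p = 0.00961), with liver replicate 1 the lowest of the liver libraries. Spic, a factor of heme-handling macrophages, was 24.7, 23.2 and 14.3 RPM in the liver and 7.23, 6.13 and 4.99 RPM in the spleen (log2 difference 1.52 ± 0.29 SE, adjusted p = 0.0073). For each of these 3 genes the organs did not overlap. Rxra, the partner receptor of LXR, was 195, 167 and 207 RPM in the liver and 178, 165 and 145 RPM in the spleen (log2 difference 0.14 ± 0.16 SE, adjusted p = 0.55), which did not pass the test.

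LXR target genes were higher in the liver for 12 of 20 tested members, with 1 lower, and their median log2 difference was 1.36 (1.03 without liver replicate 1), with 2 of the 20, Scd1 and Mertk, reaching 1 RPM only in the liver. Scd1, a fatty acid desaturase, was 30.5, 51.6 and 80.8 RPM in the liver and 0.378, 0.490 and 0.285 RPM in the spleen (log2 difference 5.16 ± 0.30 SE, adjusted p = 0.000117). Abca1, which exports cholesterol, was 176, 66.0 and 107 RPM in the liver and 12.6, 10.7 and 8.64 RPM in the spleen (log2 difference 3.16 ± 0.38 SE, adjusted p = 0.00105), and Abcg1, a second cholesterol exporter, had a log2 difference of 1.01 ± 0.18 (SE). Tgm2, a transglutaminase of apoptotic cell clearance, was 359, 288 and 269 RPM in the liver and 41.4, 60.6 and 40.3 RPM in the spleen (log2 difference 2.60 ± 0.24 SE, adjusted p = 0.000379). The organs did not overlap for these 4 genes. Of 18 sterol synthesis genes, 1 was higher (3 without liver replicate 1) and none lower, with a median of 0.03.

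Among scavenger and efferocytosis genes, 7 of 21 were higher and none lower, and without liver replicate 1 the counts were 15 and 1. Of the 21, 3 reached 1 RPM only in the liver, Mertk and Marco among them. Mertk, a receptor tyrosine kinase that clears apoptotic cells, was 75.1, 18.8 and 29 RPM in the liver and 0.945, 0.147 and 0.332 RPM in the spleen (log2 difference 4.59 ± 0.53 SE, adjusted p = 0.000891, 3.98 without liver replicate 1). Axl, its relative, was 134, 31.8 and 46.7 RPM in the liver and 13.1, 10.4 and 11.8 RPM in the spleen (log2 difference 2.16 ± 0.52 SE, adjusted p = 0.0188, 1.49 without liver replicate 1). Its call was lost when any 1 spleen library was left out, with adjusted p = 0.0539, 0.0738 and 0.069 (adjusted p = 1.16e-05 to 0.0738 over all alternatives). Marco, a scavenger receptor, was 41.8, 4.09 and 1.85 RPM in the liver and 0.236, 0.147 and 0.142 RPM in the spleen and did not pass with all 6 libraries (log2 difference 2.84 ± 0.94 SE, adjusted p = 0.0568). It passed under 7 of 17 alternatives, among them without liver replicate 1 (log2 difference 1.62, adjusted p = 0.00183). The test gave adjusted p = 5.88e-09 to 0.151 over all alternatives.

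Complement genes were higher for 6 of 14 members and lower for 1 (2 without liver replicate 1), and 3 of the 14 reached 1 RPM only in the liver. C1qb, a chain of the initiator C1q, was 1827, 184 and 234 RPM in the liver and 19.5, 8.72 and 12.5 RPM in the spleen (log2 difference 4.88 ± 0.86 SE, adjusted p = 0.00531, 3.75 without liver replicate 1, 5.51 without liver replicate 2). DESeq2 gave no adjusted p for C1qb, and the call stood under the other alternatives (adjusted p = 8.14e-07 to 0.0316 over the alternatives that gave one). C1qa was listed at or near 0 in every group, Kupffer cells included, and is not interpreted. Of 9 tested genes of a list of Fc receptors and related receptors, 4 (44.4%) were higher, compared with 15.2% over all genes. None was lower (4 higher and 1 lower without liver replicate 1). The higher ones were Fcgr4, Fcrl5, Fcgrt and Cd72, and Cd72 is not itself an Fc receptor. Fcgr4, which encodes CD16.2, was 445, 1021 and 639.8 RPM in the liver and 112, 157 and 119 RPM in the spleen (log2 difference 2.29 ± 0.28 SE, adjusted p = 0.00113), and all liver values lay above all spleen values. CD16.2 was itself a sorting marker, low in the stated spleen sort and printed as high for the liver, so the sort can set this difference.

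Iron and heme genes were higher for 6 of 17 members and lower for none (8 and 1 without liver replicate 1). The share of 35.3% higher compares with 15.2% over all genes. Hmox1, the enzyme that opens the heme ring, was 884, 444 and 384 RPM in the liver and 213, 165 and 171 RPM in the spleen (log2 difference 1.47 ± 0.36 SE, adjusted p = 0.0196). Its call was lost without spleen replicate 2 (adjusted p = 0.0789) or 3 (adjusted p = 0.0796, adjusted p = 0.000212 to 0.0796 over all alternatives). Slc40a1, the iron exporter ferroportin, was 49.1, 36.5 and 34.8 RPM in the liver and 33.3, 46.8 and 60.9 RPM in the spleen (log2 difference -0.27 ± 0.28 SE, adjusted p = 0.512). Cd163, the haemoglobin scavenger receptor, was 0.461, 0.618 and 2.0 RPM in the liver and 3.59, 2.01 and 1.28 RPM in the spleen (log2 difference -0.77 ± 0.37 SE, adjusted p = 0.155). Ferroportin and Cd163 overlapped between the organs and did not pass.

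**Figure D3:**
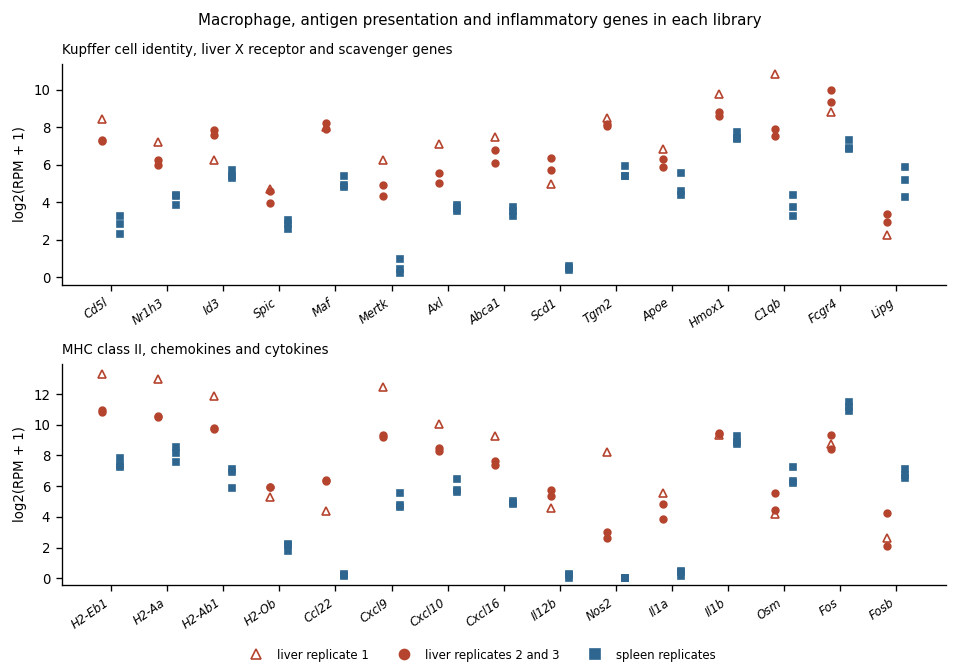
Level, as log2(RPM + 1), of macrophage genes (upper panel) and of MHC class II, chemokine, cytokine and AP-1 genes (lower panel) in each of the 6 Rnaset2-/- libraries, with 1 point per library. The liver points lie above the spleen points except for Lipg, Osm, Fos and Fosb, which lie below, and liver replicate 1 (open triangle) is the highest for Nos2, Cxcl9 and H2-Eb1.

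MHC class II presentation genes were higher in the liver for 9 of 19 tested members and lower for none, with a median log2 difference of 1.31, and without liver replicate 1 the counts were 10 and 0 and the median 0.65. Conventional dendritic cell markers, which belong to cells rich in class II, were higher in the same libraries for 8 of 14 members and lower for 1. Of these 14, 2 reached 1 RPM only in the liver. The sums of these markers overlapped between the organs, and their part was not tested. H2-Eb1, a class II β chain, was 10010.0, 1854 and 1998 RPM in the liver and 169, 151 and 225 RPM in the spleen (log2 difference 4.14 ± 0.66 SE, adjusted p = 0.0035, 3.26 without liver replicate 1). H2-Ab1, another β chain, was 3813, 883 and 829 RPM in the liver and 118, 59.4 and 137 RPM in the spleen (log2 difference 3.74 ± 0.65 SE, adjusted p = 0.00498, 2.94 without liver replicate 1). Liver replicate 1 held several times the level of the other liver libraries, yet those too lay above every spleen library. H2-Aa, an α chain, was 8041, 1432 and 1500.1 RPM in the liver and 283, 191 and 376 RPM in the spleen (log2 difference 3.16 ± 0.70 SE, adjusted p = 0.0131, 2.26 without liver replicate 1). The H2-Aa call was lost without spleen replicate 2 (adjusted p = 0.0628, adjusted p = 4.41e-05 to 0.0628 over all alternatives). Ciita, the master regulator of class II genes, was 699.9, 204 and 209 RPM in the liver and 52.7, 39.4 and 62.1 RPM in the spleen (log2 difference 2.52 ± 0.52 SE, adjusted p = 0.00957, 1.85 without liver replicate 1).

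The class II modulator DO is typical of B cells. H2-Ob, its β chain, was 38.2, 60.7 and 61.6 RPM in the liver and 2.41, 3.73 and 3.56 RPM in the spleen (log2 difference 3.60 ± 0.23 SE, adjusted p = 0.000123). H2-Oa, its α chain, was 61.0, 36.5 and 47.2 RPM in the liver and 2.98, 3.77 and 6.65 RPM in the spleen (log2 difference 3.13 ± 0.33 SE, adjusted p = 0.000583). In H2-Ob liver replicate 1 was the lowest of the liver libraries and in H2-Oa the highest. Both genes lay above every spleen value in all 3 liver libraries, in which the B cell markers were also higher, and their part was not tested. Cd72, a receptor of B cells and macrophages, was 93.0, 132 and 130.5 RPM in the liver and 16.0, 7.79 and 8.64 RPM in the spleen (log2 difference 3.31 ± 0.26 SE, adjusted p = 0.000181). Fcrl5, an Fc receptor-like protein, was 11.6, 58.4 and 30.5 RPM in the liver and 5.72, 4.31 and 4.04 RPM in the spleen (log2 difference 2.27 ± 0.47 SE, adjusted p = 0.0102).

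The promoters of the class II genes share short elements to which the class II regulatory complex binds, and CIITA acts through that complex. Promoter windows of 3 class II genes higher in the liver are shown for this reason, from RefSeq on build GRCm38.p6, from 250 bases before to 50 bases after the start site, 5′ to 3′ on the strand of the gene. Capitals mark GATTGG, the core of the Y box, and AGCAAC, from the X box, both searched on both strands and counted wherever they occurred, also as CCAATC on the other strand.
H2-Eb1, chr17:34305617-34305916, plus strand: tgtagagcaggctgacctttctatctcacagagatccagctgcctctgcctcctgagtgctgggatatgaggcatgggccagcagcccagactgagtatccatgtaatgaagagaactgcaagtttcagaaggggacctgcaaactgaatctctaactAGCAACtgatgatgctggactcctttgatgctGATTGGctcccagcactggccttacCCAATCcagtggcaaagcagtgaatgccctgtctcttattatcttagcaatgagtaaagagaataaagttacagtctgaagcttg
H2-Aa, chr17:34287774-34288073, minus strand: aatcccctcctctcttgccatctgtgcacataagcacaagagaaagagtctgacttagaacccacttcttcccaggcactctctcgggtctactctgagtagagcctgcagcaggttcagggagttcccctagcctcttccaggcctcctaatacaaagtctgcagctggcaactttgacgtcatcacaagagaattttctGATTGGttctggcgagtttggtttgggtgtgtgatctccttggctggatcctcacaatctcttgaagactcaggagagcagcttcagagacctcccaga
H2-Ob, chr17:34238655-34238954, plus strand: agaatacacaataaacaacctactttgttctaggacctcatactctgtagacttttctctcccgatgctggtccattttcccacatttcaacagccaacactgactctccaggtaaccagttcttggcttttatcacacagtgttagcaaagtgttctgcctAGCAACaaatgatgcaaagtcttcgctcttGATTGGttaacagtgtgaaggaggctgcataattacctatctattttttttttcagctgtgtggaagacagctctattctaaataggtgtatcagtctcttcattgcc
In H2-Eb1 the GATTGG letters began 60 and 35 bases before the start site and AGCAAC 92 bases before it. In H2-Ob GATTGG began 58 and AGCAAC 88 bases before, and in H2-Aa GATTGG began 49 bases before and AGCAAC was not in the window. Over the called class II genes with a window, 6 of 6 windows held GATTGG and 4 of 6 AGCAAC, compared with 16.1% and 14.8% of all 32851 windows. Over all tested class II genes with a window, 10 of 14 windows (71.4%) held GATTGG and 5 of 14 (35.7%) AGCAAC. A match is a description of the sequence, and no binding was measured. H2-Ab1 is named only.

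Chemokine ligands were higher for 7 of 14 tested members and lower for 2, with a median log2 difference of 1.51, and 2 of the 14, Ccl22 among them, reached 1 RPM only in the liver. Cxcl9, an interferon-γ induced ligand of CXCR3, was 5576, 583 and 642 RPM in the liver and 45.6, 23.7 and 26.1 RPM in the spleen (log2 difference 5.27 ± 0.87 SE, adjusted p = 0.00391, 4.13 without liver replicate 1, 5.86 without liver replicate 2). DESeq2 gave no adjusted p for Cxcl9, and the call stood under the other alternatives (adjusted p = 1.11e-06 to 0.025 over the alternatives that gave one). Cxcl10, another CXCR3 ligand, was 1073, 314 and 357 RPM in the liver and 86.2, 47.6 and 54.1 RPM in the spleen (log2 difference 2.93 ± 0.51 SE, adjusted p = 0.00514, 2.29 without liver replicate 1). Both were highest in liver replicate 1, and both stayed above the spleen in the other liver libraries. Ccl22, a ligand of CCR4 made by dendritic cells and macrophages, was 20.1, 79.6 and 82.4 RPM in the liver and 0.189, 0.196 and 0.0950 RPM in the spleen (log2 difference 5.44 ± 0.46 SE, adjusted p = 0.000254, 6.04 without liver replicate 1). Ccl5, also made by natural killer cells and on that list, was 2870.1, 515 and 432 RPM in the liver and 42.0, 57.7 and 41.9 RPM in the spleen (log2 difference 4.10 ± 0.72 SE, adjusted p = 0.00514, 3.15 without liver replicate 1). Cxcl16, a membrane-bound chemokine and scavenger receptor, was 611, 169 and 198 RPM in the liver and 31.7, 29.3 and 27.2 RPM in the spleen (log2 difference 3.11 ± 0.50 SE, adjusted p = 0.00349, 2.44 without liver replicate 1).

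Of 25 tested inflammatory cytokines, 7 were higher and 3 lower in the liver, and 6 reached 1 RPM only in the liver, among them Il12b, Il1a and Ifnb1, so the filter fixed their direction. Il12b, the shared p40 chain of IL-12 and IL-23, was 23.5, 39.5 and 54.1 RPM in the liver and 0.189, 0 and 0.237 RPM in the spleen (log2 difference 5.02 ± 0.28 SE, adjusted p = 0.000109). Il1a, encoding IL-1α, was 47.1, 13.3 and 28.1 RPM in the liver and 0.378, 0.343 and 0.0950 RPM in the spleen (log2 difference 4.38 ± 0.46 SE, adjusted p = 0.000591). Ifnb1, interferon-β, was 2.99, 2.70 and 5.69 RPM in the liver and 0.0470, 0 and 0.237 RPM in the spleen (log2 difference 2.05 ± 0.28 SE, adjusted p = 0.00189). These 3 were at or below 0.378 RPM in each spleen library. Il1b, encoding the IL-1β precursor, was 644, 693 and 659 RPM in the liver and 425, 614 and 469 RPM in the spleen (log2 difference 0.35 ± 0.20 SE, adjusted p = 0.224) and did not pass, although every liver value was above every spleen value. Tnf was 11.4, 3.40 and 3.0 RPM in the liver and 0.378, 1.72 and 2.94 RPM in the spleen (log2 difference 1.25 ± 0.58 SE, adjusted p = 0.145). Il6 was 3.22, 0.850 and 8.46 RPM in the liver and 0.803, 1.27 and 0.380 RPM in the spleen (log2 difference 1.19 ± 0.55 SE, adjusted p = 0.143). The anti-inflammatory Il10 was 3.22, 7.03 and 9.62 RPM in the liver and 2.36, 4.90 and 1.14 RPM in the spleen (log2 difference 0.96 ± 0.45 SE, adjusted p = 0.146). None of these 3 passed in limma's test of the 6 libraries, and Il6 and Il10 overlapped between the organs. Il10 passed without liver replicate 1 (log2 difference 1.27, adjusted p = 0.0276, adjusted p = 0.0276 to 0.401 over all alternatives). Il6 passed with DESeq2 (adjusted p = 0.0227), in a fit of all 29 libraries and without liver replicate 2 (adjusted p = 0.0227 to 0.346 over all alternatives). Tnf passed in the fit of all 29 libraries alone (adjusted p = 0.0212 to 0.374 over all alternatives). Osm, oncostatin M, went the other way at 17.7, 20.5 and 45.2 RPM in the liver and 155, 79.3 and 73.0 RPM in the spleen (log2 difference -1.95 ± 0.37 SE, adjusted p = 0.00734). Nos2, kept on this list, was at 0 in the spleen and at 295, 6.95 and 5.31 RPM in the liver (log2 difference 4.59 ± 1.38 SE, adjusted p = 0.0417, 2.74 without liver replicate 1, 5.41 without liver replicate 2, 5.59 without liver replicate 3). Liver replicate 1 held most of its level, and Nos2 passed the filter only through the liver. DESeq2 gave no adjusted p for it, and the call was lost without any 1 spleen library (adjusted p = 0.105, 0.118 and 0.121) and with no filter, with adjusted p = 1.80e-05 to 0.121 over the alternatives that gave one.

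Of 31 NF-κB target and regulator genes, 9 were higher and 1 lower (8 and 2 without liver replicate 1). Of 35 interferon-stimulated genes, 4 were higher and 3 lower, with a median of -0.04, and without liver replicate 1 the counts were 4 and 6. Over all genes the shares were 15.2% higher and 12.9% lower, and 19.6% and 15.9% without liver replicate 1. Irf7, the interferon-induced regulator, was 292, 307 and 231 RPM in the liver and 380.3, 220.0 and 249 RPM in the spleen (log2 difference -0.08 ± 0.24 SE, adjusted p = 0.84).

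Of 40 tested immediate early and stress genes, 7 were higher and 12 lower in the liver, and Fos, Fosb and Egr1 fell while Hspa1a and Hspa1b rose. Of the 40, 2 reached 1 RPM only in the liver. Fos, an AP-1 subunit, was 421, 337 and 635 RPM in the liver and 2919.9, 2289 and 1926 RPM in the spleen (log2 difference -2.46 ± 0.27 SE, adjusted p = 0.000667). Fosb, its relative, was 5.07, 3.24 and 18.2 RPM in the liver and 138, 106 and 93.8 RPM in the spleen (log2 difference -3.90 ± 0.49 SE, adjusted p = 0.00124). Egr1, a zinc-finger factor induced by growth signals, was 99.0, 83.4 and 130.0 RPM in the liver and 322, 374 and 330.4 RPM in the spleen (log2 difference -1.80 ± 0.19 SE, adjusted p = 0.000573). Hspa1a, like Hspa1b an inducible HSP70 gene, was 131, 292 and 411 RPM in the liver and 4.68, 2.70 and 3.70 RPM in the spleen (log2 difference 5.70 ± 0.35 SE, adjusted p = 0.000117). The organs did not overlap for any of these 4, and the dissociation that differed between the organs was not tested.

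Genes of neutrophil granules led the genes lower in the liver. The 12 with the largest negative difference were Camp, Ltf, Fcnb, Ngp, Itgb2l, S100a8, Elane, S100a9, Ms4a3, Ncam1, Mogat2 and Lcn2. Camp, the cathelicidin precursor, was 10.3, 98.2 and 53.6 RPM in the liver and 2392, 5146 and 4353 RPM in the spleen (log2 difference -6.66 ± 0.70 SE, adjusted p = 0.000594, -5.84 without liver replicate 1, -7.30 without liver replicate 2). S100a8, a subunit of calprotectin, was 53.7, 248 and 142 RPM in the liver and 4718, 8581 and 9644 RPM in the spleen (log2 difference -5.95 ± 0.51 SE, adjusted p = 0.000267). Elane, neutrophil elastase of primary granules, was 0.307, 23.0 and 10.5 RPM in the liver and 292, 326 and 695 RPM in the spleen (log2 difference -5.93 ± 0.95 SE, adjusted p = 0.00343, -4.76 without liver replicate 1, -6.79 without liver replicate 2). Ms4a3, a marker of granulocyte and monocyte progenitors, was 0.537, 5.56 and 4.0 RPM in the liver and 117, 156 and 264 RPM in the spleen (log2 difference -5.61 ± 0.53 SE, adjusted p = 0.000376). For each of the 12, all liver values lay below all spleen values, liver replicate 1 was the lowest library, and the call stood under every alternative tried.

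Classical monocyte genes were lower in the liver for 10 of 19 members and higher for none (median log2 difference -1.04), and for 14, with 1 higher, without liver replicate 1. The 10 include Lcn2 (log2 difference -5.27 ± 0.30 SE, adjusted p = 0.000109) and Cd177 (log2 difference -4.71 ± 0.68 SE, adjusted p = 0.00219, -3.83 without liver replicate 1), which neutrophils also make in abundance. The neutrophil markers were lower in the same liver libraries (17 of 18), and their part in this count was not tested. Thbs1, thrombospondin 1, was 48.2, 16.6 and 23.3 RPM in the liver and 712, 712 and 383 RPM in the spleen (log2 difference -4.46 ± 0.45 SE, adjusted p = 0.00051). F13a1, a coagulation factor chain, was 162, 361 and 365 RPM in the liver and 2044, 1208 and 1339 RPM in the spleen (log2 difference -2.50 ± 0.31 SE, adjusted p = 0.00118). These genes did not overlap between the organs. Ccr2, the receptor that draws monocytes out of the marrow, was 462, 401 and 336 RPM in the liver and 654, 497 and 613 RPM in the spleen (log2 difference -0.63 ± 0.21 SE, adjusted p = 0.0599), below the spleen in each liver library but short of the threshold with all 6 libraries. It passed without liver replicate 1 (log2 difference -0.83, adjusted p = 0.00235) and under no other alternative (adjusted p = 0.00235 to 0.371 over all alternatives).

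Patrolling monocyte genes depended on liver replicate 1. With all 6 libraries 2 of 16 (12.5%, compared with 15.2% over all genes) were higher and none lower. Without liver replicate 1, 10 were higher and 1 lower, compared with 19.6% and 15.9% over all genes. The summed level of the patrolling monocyte genes was 2887, 10861 and 10534 RPM in the liver and 6040 to 6275 RPM in the spleen. Ace was 26.2, 609 and 667 RPM in the liver and 179, 146 and 145 RPM in the spleen, with a log2 difference of 0.43 ± 1.06 (SE, adjusted p = 0.797) over all libraries and 1.87 (adjusted p = 4.99e-06) without liver replicate 1. Cx3cr1, the fractalkine receptor, was 26.4, 134 and 143 RPM in the liver and 114, 82.9 and 87.2 RPM in the spleen (log2 difference -0.30 ± 0.54 SE, adjusted p = 0.715). Nr4a1, the nuclear receptor on which patrolling monocytes depend, was 203, 1516 and 2281 RPM in the liver and 1781, 1713 and 1569.7 RPM in the spleen (log2 difference -1.0 ± 0.75 SE, adjusted p = 0.358). Without liver replicate 1 the log2 difference of Cx3cr1 was 0.40 (adjusted p = 0.0617) and that of Nr4a1 -0.02 (adjusted p = 0.951), and neither gene passed under any alternative.

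**Figure D4:**
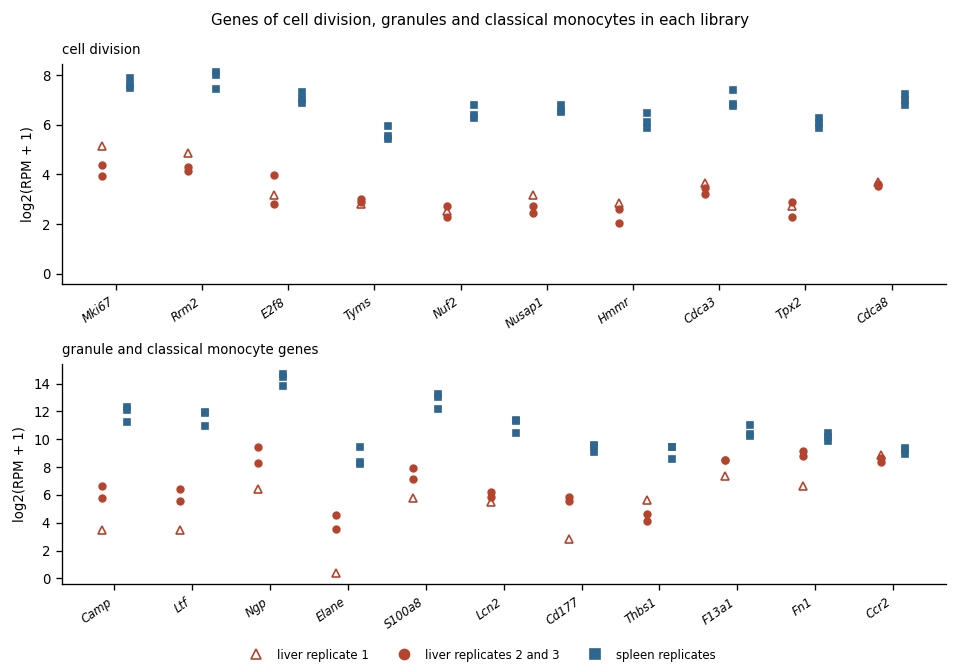
Level, as log2(RPM + 1), of cell division genes (upper panel) and of granule and classical monocyte genes (lower panel) in each of the 6 Rnaset2-/- libraries, with 1 point per library. All spleen points lie above all liver points for every gene shown, and the gap is narrowest for Ccr2, which did not pass the test with all 6 libraries.

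Genes of the cell cycle were lower in the liver almost throughout. Of 51 tested G2/M genes, 48 were lower and none higher, with a median log2 difference of -2.84 (-2.88 without liver replicate 1). Of 38 S phase genes 30 were lower and none higher (32 and 1 without liver replicate 1), with a median of -1.70. In each list 2 members reached 1 RPM only in the spleen, so the filter fixed their direction. The G2/M genes summed to 1605 to 2002 RPM in the liver and 6392 to 7646 RPM in the spleen, and the S phase genes to 677 to 777 RPM and 2076 to 3147 RPM. Mki67, the proliferation marker Ki-67, was 34.0, 19.8 and 14.2 RPM in the liver and 194, 178 and 234 RPM in the spleen (log2 difference -3.25 ± 0.34 SE, adjusted p = 0.000604). Top2a, the topoisomerase that separates replicated DNA, was 37.5, 25.6 and 28.2 RPM in the liver and 242, 260.1 and 312 RPM in the spleen (log2 difference -3.20 ± 0.22 SE, adjusted p = 0.000146). Mcm5, a subunit of the replicative helicase, was 17.6, 27.3 and 26.5 RPM in the liver and 84.2, 84.5 and 121 RPM in the spleen (log2 difference -2.06 ± 0.20 SE, adjusted p = 0.000446). None of these 3 overlapped between the organs. The neutrophil and granulocyte precursor markers were higher in the same spleen libraries, and their part was not tested.

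Many genes of G2/M are known for promoters with repeated CCAAT boxes and with an element called CHR, read by the DREAM complex in resting cells. Promoter windows of 3 G2/M genes lower in the liver are shown, from the same source and of the same length, with capitals for CCAAT, read on the other strand as ATTGG, and for TTTGAA, the core letters of CHR, both searched on both strands. GATTGG above contains ATTGG, so these searches overlap.
Hmmr, chr11:40733388-40733687, minus strand: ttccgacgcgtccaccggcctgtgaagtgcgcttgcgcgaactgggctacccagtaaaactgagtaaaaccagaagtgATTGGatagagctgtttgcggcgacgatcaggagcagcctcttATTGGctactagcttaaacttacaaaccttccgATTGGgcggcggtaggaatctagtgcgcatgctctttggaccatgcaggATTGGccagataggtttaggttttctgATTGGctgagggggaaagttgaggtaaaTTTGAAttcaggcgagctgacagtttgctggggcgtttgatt
Cdca3, chr6:124829926-124830225, plus strand: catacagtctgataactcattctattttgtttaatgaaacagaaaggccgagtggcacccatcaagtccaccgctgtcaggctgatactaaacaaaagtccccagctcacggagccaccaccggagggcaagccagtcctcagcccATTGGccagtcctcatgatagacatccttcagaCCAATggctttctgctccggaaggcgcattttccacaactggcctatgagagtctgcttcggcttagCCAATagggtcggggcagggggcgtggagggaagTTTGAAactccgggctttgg
Cdca8, chr4:124936868-124937167, minus strand: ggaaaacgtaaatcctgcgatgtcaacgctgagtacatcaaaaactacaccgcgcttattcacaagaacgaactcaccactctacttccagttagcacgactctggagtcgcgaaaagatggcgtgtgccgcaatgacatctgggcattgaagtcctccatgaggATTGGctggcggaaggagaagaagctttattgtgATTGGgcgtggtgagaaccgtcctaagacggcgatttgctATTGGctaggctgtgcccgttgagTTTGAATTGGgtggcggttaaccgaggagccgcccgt
In Hmmr, which encodes a hyaluronan and spindle protein, the levels were 6.14, 5.02 and 3.08 RPM in the liver and 57.9, 68.8 and 88.7 RPM in the spleen (log2 difference -3.74 ± 0.29 SE, adjusted p = 0.0002), and CCAAT began at 5 positions, 172 to 20 bases before the start site. In Cdca3, a trigger of mitotic entry, the levels were 11.5, 9.96 and 8.15 RPM in the liver and 112, 107 and 169 RPM in the spleen (log2 difference -3.63 ± 0.25 SE, adjusted p = 0.000133). In Cdca8, the chromosomal passenger protein borealin, they were 11.8, 11.3 and 10.7 RPM in the liver and 111, 128 and 151 RPM in the spleen (log2 difference -3.48 ± 0.18 SE, adjusted p = 0.000109). In each of the 3 windows TTTGAA lay within the bases after the start site. Of 45 windows of called G2/M genes, 71.1% held CCAAT, 71.1% TTTGAA and 55.6% both, compared with 37.4%, 17.9% and 7.0% of all windows. For the 48 windows of all tested G2/M genes these shares were 72.9%, 68.8% and 54.2%. The windows of Nuf2 and Nusap1, both spindle genes, held neither set of letters.

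Of 24 tested genes of the endosomal Toll-like receptor pathway, 4 were higher in the liver and none lower (median log2 difference 0.15), compared with 15.2% higher and 12.9% lower over all genes. Tlr3, the receptor for double-stranded RNA, was 17.6, 15.7 and 10.9 RPM in the liver and 1.75, 2.35 and 3.23 RPM in the spleen (log2 difference 2.13 ± 0.29 SE, adjusted p = 0.00189). Irak2, a kinase that prolongs Toll-like receptor signals, was 121, 105 and 154 RPM in the liver and 65.0, 53.3 and 56.7 RPM in the spleen (log2 difference 1.02 ± 0.17 SE, adjusted p = 0.0043). Both were higher in each liver library. Tlr9, the DNA receptor, was 193, 108 and 111 RPM in the liver and 132, 111 and 107 RPM in the spleen (log2 difference 0.11 ± 0.29 SE, adjusted p = 0.807). Unc93b1, the chaperone of these receptors, was 2151, 1323 and 1104 RPM in the liver and 1558, 1279.8 and 1404 RPM in the spleen (log2 difference -0.02 ± 0.32 SE, adjusted p = 0.969). Myd88, their adaptor, was 219, 209.8 and 222 RPM in the liver and 232, 237 and 231 RPM in the spleen (log2 difference -0.18 ± 0.14 SE, adjusted p = 0.373). These 3 did not pass. Irf5, a factor downstream of these receptors, was 450.4, 503 and 537 RPM in the liver and 549, 373 and 395 RPM in the spleen (log2 difference 0.12 ± 0.17 SE, adjusted p = 0.647).

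The X-linked receptors are given as levels, since the sex of the mice differed between the organs. Tlr13, which recognises bacterial ribosomal RNA, was 29.6 to 81.6 RPM in the liver and 97.0 to 157 RPM in the spleen, so the ranges did not overlap. Tlr7, a receptor for guanosine and single-stranded RNA, was 65.1 to 214 RPM in the liver and 161 to 220 RPM in the spleen. Tlr8, its relative, was 92.2 to 138 RPM in the liver and 85.1 to 101 RPM in the spleen. Tlr7 and Tlr8 overlapped.

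Of 16 tested genes of a list of cathepsins, the related protease legumain and cystatin inhibitors, 5 were higher and 1 lower, and 1 reached 1 RPM only in the liver. Ctsl, cathepsin L, was 216, 205 and 314 RPM in the liver and 74.9, 65.1 and 46.1 RPM in the spleen (log2 difference 1.89 ± 0.23 SE, adjusted p = 0.00102). Lgmn, legumain, an asparaginyl endopeptidase that activates cathepsins, was 333, 296 and 265 RPM in the liver and 67.9, 87.1 and 67.3 RPM in the spleen (log2 difference 1.92 ± 0.20 SE, adjusted p = 0.000602). Both separated the organs fully. Neither cystatin on the list was called. Ctsw, a protease of natural killer and T cells, was 35.2, 57.0 and 63.0 RPM in the liver and 6.0, 7.84 and 6.03 RPM in the spleen (log2 difference 2.69 ± 0.22 SE, adjusted p = 0.000235), higher in the libraries in which the markers of those cells were also higher. Ctsg, cathepsin G of neutrophil granules and itself on the neutrophil list, was the lower one at 0.307, 26.7 and 26.5 RPM in the liver and 187, 203 and 502 RPM in the spleen (log2 difference -4.85 ± 1.10 SE, adjusted p = 0.0144, -3.44 without liver replicate 1, -5.57 without liver replicate 2, -5.53 without liver replicate 3). The Ctsg call was lost without spleen replicate 2 (adjusted p = 0.0516) or 3 (adjusted p = 0.0662, adjusted p = 4.69e-05 to 0.0662 over all alternatives). The part of these cells was not tested. For the lists in this paragraph, the shares over all genes were 15.2% higher and 12.9% lower, and 19.6% and 15.9% without liver replicate 1. Other lysosomal genes were higher for 6 of 39 (15.4%, close to the share over all genes) and lower for 2 (5 and 4 without liver replicate 1). Proton pump genes were higher for 0 and lower for 1 of 12 (0 and 4). Among the remaining lists, growth factor receptors were higher for 9 of 33 and lower for 3, of which list 2 reached 1 RPM only in the liver and 1 only in the spleen. Alternative activation genes were higher for 6 and lower for 3 of 15, with 3 and 1 such members. Integrin and adhesion genes were higher for 6 and lower for 4 of 30 (15 and 4 without liver replicate 1), and glycolysis genes for 6 and 2 of 24 (7 and 8), with 1 member of each reaching 1 RPM only in the liver. Inflammasome genes were higher for 3 and lower for 0 of 19 (3 and 1).

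The same organ contrast in wild-type Ly6Chi libraries gave 1764 genes (17.1%) higher and 2133 (20.7%) lower in the liver, of 10289 tested. Of the 1582 genes higher in the liver of Rnaset2-/- mice, 383 (24.2%) were also higher in wild type, 21.7% of the wild-type calls, and 310 were lower there. Of the 1335 lower genes, 629 (47.1%) were also lower in wild type, 29.5% of the wild-type calls, and 97 were higher there. The genotypes share no library. In wild type, Y-linked transcripts summed to 0, 29 and 42.1 RPM in the liver libraries and at most 0.140 RPM in the spleen, and Xist was 321 to 612 RPM in all 6, so that liver replicates 2 and 3 held both. The sexes were thus distributed differently over the organs in the 2 genotypes. Depth differed too, since the wild-type libraries held 11179177 to 12956956 reads in the liver and 14280906 to 14415756 in the spleen. The Rnaset2-/- spleen libraries held 20404155 to 21167602. The part of depth in the difference between the genotypes was not tested.

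The difference between the genotypes was tested as an interaction over 12 libraries and 10963 genes. The liver-spleen difference was higher in Rnaset2-/- for 1925 genes (17.6%) and lower for 1762 (16.1%), and with RPM as deposited, without further scaling, for 3056 and 807, a scaling under which the median of all genes shifted to 0.36 on the log2 scale. Cd5l had an organ-by-genotype interaction 7.61 ± 0.50 SE, adjusted p = 5.84e-07, with an organ difference of -2.82 in wild type. Mertk (interaction 4.03 ± 0.64 SE, adjusted p = 0.000609), Scd1 (interaction 4.04 ± 0.40 SE, adjusted p = 1.68e-05), Abca1 (interaction 2.65 ± 0.46 SE, adjusted p = 0.00101), H2-Ob (interaction 4.27 ± 0.27 SE, adjusted p = 5.16e-07) and Il12b (interaction 4.78 ± 0.47 SE, adjusted p = 1.74e-05) also differed more between the organs in Rnaset2-/-. The Rnaset2-/- organ difference of Mertk was smaller without liver replicate 1, as given above. By contrast, Nr1h3 (interaction -0.14 ± 0.43 SE, adjusted p = 0.829), Hspa1b (interaction -0.002 ± 0.59 SE, adjusted p = 0.998), Mki67 (interaction -0.26 ± 0.49 SE, adjusted p = 0.719) and Lcn2 (interaction 0.44 ± 0.75 SE, adjusted p = 0.689) did not pass this test.

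Lymphocyte markers and immediate early genes differed between the genotypes in opposite directions. All 14 tested T cell and all 14 natural killer cell markers had a higher organ difference in Rnaset2-/-, and 2 of these T cell markers reached 1 RPM in Rnaset2-/- only in the liver. In wild type the T cell markers summed to 22.5 to 43.8 RPM in the liver and 338 to 370 RPM in the spleen, the reverse of the order in Rnaset2-/-. Of 41 immediate early and stress genes, 27 had a lower organ difference in Rnaset2-/- and 2 a higher one. In wild type they summed to 41295 to 46755 RPM in the liver and 24367 to 24515 RPM in the spleen, and in Rnaset2-/- to 7138 to 13029.5 RPM and 13224 to 16855 RPM. Egr1 had an interaction -4.72 ± 0.26 SE, adjusted p = 1.69e-07, and Thbs1 an interaction -5.35 ± 0.56 SE, adjusted p = 3.00e-05. Of 51 G2/M genes, 11 had a lower and none a higher organ difference in Rnaset2-/- (median interaction -0.36). Over all genes, 16.1% had a lower and 17.6% a higher one.

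**Figure D5:**
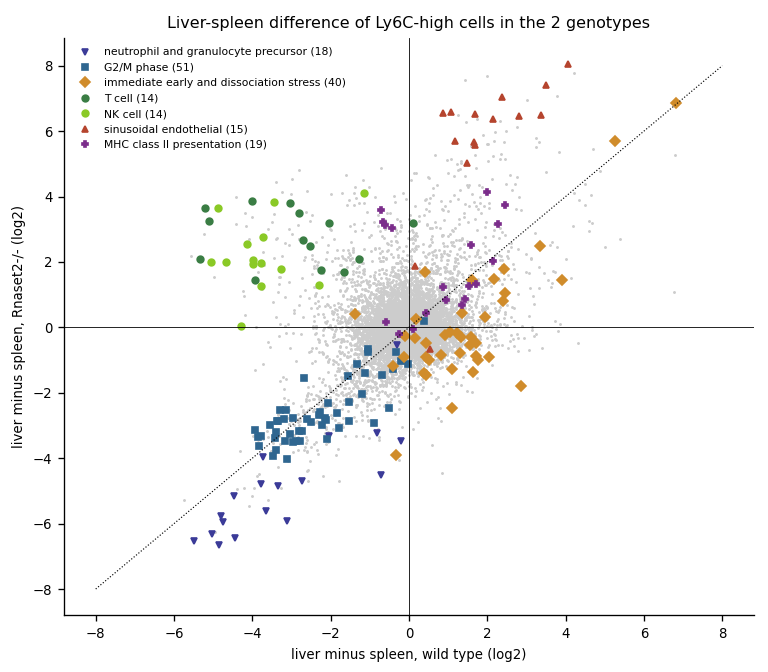
Organ difference (log2, liver minus spleen) in wild type (horizontal axis) and in Rnaset2-/- (vertical axis), with 3 libraries per organ and genotype, for all genes tested in both (grey) and for 7 gene lists (colour). The dotted diagonal marks equal differences. G2/M genes lie near it, whereas T and natural killer cell genes are mostly lower in the liver in wild type and higher in Rnaset2-/-.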

How the data were processed

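Transcripts were measured with an amplicon panel of the mouse transcriptome (Ion AmpliSeq) from 1 ng RNA on an Ion Proton sequencer. The authors deposited RPM, reads scaled to a common library total, on build mm10. The file gives no counts, but whole reads could be recovered from the RPM steps (100.0% of values within 0.1 reads of a whole number), and they gave the depths and served the count tests. RPM was divided by relative log expression factors, 1 RPM was added as pseudocount, and limma 3.58.1 in R 4.3.3 (trend, two-sided, Benjamini-Hochberg adjustment) was fitted to autosomal genes that reached 1 RPM in 3 or more libraries. Calls needed more than 1.5-fold and an adjusted p below 0.05. The columns of the groups were matched by name, and the script was tested on simulated data. Gene lists and named genes were chosen with earlier results of these data known. Named were the 12 largest called differences per direction (mean of at least 10 RPM, no overlap), up to 6 called and 3 uncalled members per list, and a set of genes given by name. From these the text shows a selection, and some items are not reported here. The exact permutation test of 3 against 3 libraries cannot go below p = 0.1, so it was not used. None of the 6 libraries differed from another by as little as sampling noise. Chromosomes were assigned by gene symbol, and 1197 genes without a single one were left out. Alternatives used edgeR 4.0.16, DESeq2 1.42.0, other scalings, filters and pseudocounts, a replicate block and each library left out. Promoter windows came from RefSeq (GRCm38.p6).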

Additional observations from a re-analysis of the deposited data

Results flagged for a closer look

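The liver-spleen difference of Ly6Chi macrophages depended on genotype by a direct test (interaction, limma over 12 libraries) at 1925 genes with a higher and 1762 genes with a lower difference in Rnaset2-/-. The 6 highest interactions (log2) were of lymphocyte genes, Cd3e at 8.86, Il2rb at 8.49, Gimap3 at 8.41, Lck at 8.34, Thy1 at 8.04 and Cd3g at 7.87. The 6 lowest were Thbs1 at -5.35, Egr1 at -4.72, Rgcc at -4.21, Il1r2 at -3.83, Retnlg at -3.83 and Dmkn at -3.70.

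Among the macrophage genes listed by name, the interaction passed the test in the higher direction for Cd5l at 7.61, Clec4f at 1.79, Timd4 at 2.36, Mertk at 4.03, C1qb at 3.11, Slc40a1 at 3.01, Abca1 at 2.65, Fcrl5 at 2.21 and Cd72 at 3.59. It passed in the lower direction for Id3 at -1.84, Ccr2 at -1.32, Il10 at -2.27, Tnf at -2.44, Il6 at -2.19 and Il1b at -2.75. Of these calls, 5 were lost under some alternatives. Clec4f was lost with DESeq2 and edgeR (adjusted p up to 1.00), Fcrl5 and Il6 with both and with a pseudocount of 0.1 (up to 0.602 and 0.149), C1qb under 6 of the 20 alternatives that gave an adjusted p (up to 0.0624) and Il10 under 6 (up to 0.0616). Among the 12 libraries Clec4f reached 1 RPM only in the Rnaset2-/- liver, so the filter fixed the direction of its interaction. The interaction values given here come from all libraries. For Mertk and C1qb the organ difference in Rnaset2-/- was smaller without liver replicate 1, as given above.

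Outside the autosomal comparison, 43 X-linked genes were called higher and 46 lower in the liver, of 320 tested (27.8%), close to the autosomal shares of 15.2% higher and 12.9% lower, with Tlr13 among the lower ones (log2 difference -1.36, adjusted p = 0.0174). The sex of the mice differed between the organs and cannot be told apart from them here.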

How the results depend on the processing

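Leaving out 1 library at a time gave 1041 (without spleen replicate 2) to 2033 (without liver replicate 1) genes higher in the liver, and 814 (without spleen replicate 3) to 1653 (without liver replicate 1) lower, with 848 lower without spleen replicate 2. A threshold of 2-fold gave 785 lower genes, and 1078 genes with a lower interaction. With RPM as deposited the interaction gave 3056 higher and 807 lower genes. The cause was not tested. DESeq2, edgeR, TMM factors, no filter, a pseudocount of 0.1 and all chromosomes kept the organ and the interaction counts within 1.5 times. For the organ counts, the only ones they were run for, so did all 29 libraries in 1 fit and reads thinned to the smallest library, an alternative added after seeing the data. On the recovered reads edgeR called 1690 genes higher and 1262 lower, and DESeq2 1919 and 1377. The labels do not say that replicate numbers pair samples, and the correlations of same-numbered deviations were 0.0889, 0.0404 and 0.0109. A replicate block gave 1483 higher and 1203 lower genes, and 1862 and 1670 for the interaction. Of 199 calls of named genes in the organ comparison, 158 stood under every alternative that gave an adjusted p and 41 were lost under some, most often without spleen replicate 3 (37) and least often, among the libraries left out, without liver replicate 1 (1). No call changed sign. DESeq2 gave no adjusted p for 5 named genes, 4 of them called, and these were not counted as lost. Of the 110 named genes that were not called, 49 were called under some alternative. Of 92 counts of called list members, 26 moved by over 1.5 times without liver replicate 1 and 27 without spleen replicate 3. Of 29 interaction calls of named genes, 24 stood. Low genes in the liver are limited by depth at 0.230 to 0.232 RPM for 3 reads.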
